A study of Mus musculus with 92 samples.

Results

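The 8 genes described here belong to the NRF2 antioxidant response of the mouse. They were taken by symbol from the 54532 genes in 4 deposited tables of raw RNA-seq read counts, and each symbol matched 1 gene. Nfe2l2 encodes NRF2, a transcription factor, and Keap1 encodes the adaptor that hands NRF2 to a ubiquitin ligase. The other 6 genes are commonly used targets of NRF2: Gclc and Gclm for glutathione synthesis, Nqo1 for quinone reduction, Hmox1 for heme breakdown, and Txnrd1 and Srxn1 for the thioredoxin and peroxiredoxin system. The genes were chosen by their place in the pathway, with earlier results of these data known.

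In unstressed cells KEAP1 keeps NRF2 protein low by marking it for degradation. Oxidants and electrophiles modify cysteines of KEAP1, NRF2 then escapes degradation, enters the nucleus, and binds antioxidant response elements together with small MAF proteins. Because this switch acts on the protein, the Nfe2l2 transcript level is not a measure of NRF2 activity, and the target transcripts are the usual readout. The intestinal epithelium meets dietary and microbial electrophiles, and its villi hold the differentiated cells while its crypts hold the stem cells and Paneth cells.

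The study deleted Eif4g2, which encodes a translation initiation factor of the eIF4G family, from the mouse intestine and from cultures grown out of it. The tissue libraries came from crypts and villi of tamoxifen-treated mice, in which CreER was made from Rosa26, a locus active in nearly all cell types, or from Vil1, a promoter active in the intestinal epithelium. Homozygous mice were Eif4g2(flox/flox) and heterozygous controls were Eif4g2(flox/+), so the controls had also received tamoxifen, carried CreER and had 1 floxed allele. Rosa26(CreER) tissue was taken on day 9 and comprised 4 homozygous crypt, 5 heterozygous crypt, 5 homozygous villus and 5 heterozygous villus libraries. Vil1(CreER) mice received 100 mg/kg tamoxifen on each of 4 days, and their tissue is labelled 3 months, which the labels do not define as age or as time after tamoxifen. It comprised 3 homozygous crypt, 4 heterozygous crypt, 6 homozygous villus and 4 heterozygous villus libraries. Organoids, which are epithelial cultures grown from adult small intestine, were kept in medium with EGF, Noggin and R-spondin (ENR), and every line used here carried Rosa26(CreER). In the first organoid set 3 Eif4g2(flox/flox) lines each received DMSO or 0.5 µM 4-OHT (4-hydroxytamoxifen, which activates CreER) for 24 hours and were collected on day 6. In the second set all 12 libraries received 4-OHT, and 4 each were Eif4g2(flox/flox), Eif4g2(flox/+) or carried CreER with both Eif4g2 copies intact. Fetal intestinal spheroids, grown from fetal intestine, comprised 6 flox/flox and 5 flox/+ lines, each with DMSO and with 4-OHT and collected on day 6. In a further experiment 4 organoid lines that received no 4-OHT were grown for 4 days in DMSO or in 3, 5 or 10 µM A-485, an inhibitor of the acetyltransferases p300 and CBP. Of these lines, 1 was Eif4g2 wild type and 3 were flox/flox, and the same 4 lines stand at each dose. By its label, 1 of the 3 flox/flox lines is also a line of the first organoid set, so these experiments share a line. The age of the mice at tamoxifen is not given in the sources used here.

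Promoter sequences were read for the genes whose levels moved together most closely and for those discussed below, to show which of them carry an antioxidant response element core near their start site. RefSeq promoter windows on GRCm38.p6 were matched for 6 of the 8 genes, as 8 windows of 250 bases before an annotated start site. Capitals mark matches, on either strand, to the element core TGACNNNGC or to TGACTCA, the related site shared by MAF, BACH and AP-1 proteins, and no match of one overlapped a match of the other. A match on the strand opposite to the gene is printed as its reverse complement.
Srxn1, chr2:152105274-152105523, plus strand: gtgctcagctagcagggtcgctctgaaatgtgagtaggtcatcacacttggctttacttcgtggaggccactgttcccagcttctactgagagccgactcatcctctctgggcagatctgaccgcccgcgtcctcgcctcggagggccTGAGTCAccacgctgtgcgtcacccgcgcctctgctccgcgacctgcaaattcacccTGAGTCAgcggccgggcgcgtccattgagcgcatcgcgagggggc
Gclm, chr3:122245307-122245556, plus strand: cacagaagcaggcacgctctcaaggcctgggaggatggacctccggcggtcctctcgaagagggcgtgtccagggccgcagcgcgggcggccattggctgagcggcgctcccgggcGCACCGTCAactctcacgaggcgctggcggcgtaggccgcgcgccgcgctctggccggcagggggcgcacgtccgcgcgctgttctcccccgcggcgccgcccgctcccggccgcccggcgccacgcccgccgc
Txnrd1, the second of its start sites, chr10:82858956-82859205, plus strand: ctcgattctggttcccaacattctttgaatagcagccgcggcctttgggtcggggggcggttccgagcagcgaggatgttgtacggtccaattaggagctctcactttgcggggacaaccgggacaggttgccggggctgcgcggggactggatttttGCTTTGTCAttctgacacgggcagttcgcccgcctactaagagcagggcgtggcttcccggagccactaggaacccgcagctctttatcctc
Nfe2l2, chr2:75704664-75704913, minus strand: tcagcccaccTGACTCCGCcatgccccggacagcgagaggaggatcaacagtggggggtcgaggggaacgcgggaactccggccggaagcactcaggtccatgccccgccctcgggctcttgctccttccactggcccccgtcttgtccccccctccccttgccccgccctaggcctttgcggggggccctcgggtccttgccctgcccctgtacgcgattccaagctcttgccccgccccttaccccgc
Nqo1, chr8:107403206-107403455, minus strand: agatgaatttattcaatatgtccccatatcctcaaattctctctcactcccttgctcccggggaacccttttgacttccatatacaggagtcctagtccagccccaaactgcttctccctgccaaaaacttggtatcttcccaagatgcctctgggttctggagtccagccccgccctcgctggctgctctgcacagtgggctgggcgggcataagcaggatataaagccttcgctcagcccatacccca

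The Srxn1 window held 2 copies of TGACTCA, at bases 102 to 96 and 45 to 39 before the start site, both on the strand opposite to the gene. Of 32851 mouse promoter windows of the same length, 4.46% held TGACTCA and 0.167% held 2 or more. The core TGACNNNGC, held by 10.2% of all windows, was found as TGACGGTGC in the Gclm window, as TGACAAAGC in the second Txnrd1 window and as TGACTCCGC in the Nfe2l2 window. The Srxn1 window held no TGACNNNGC, but other spellings of the core were not searched. The windows of Nqo1, of Keap1 and of the other Txnrd1 start sites held neither sequence, which says only that these letters are not within 250 bases of those starts. A match describes the sequence and does not show that a factor was bound.

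The total count per library ran from 8652040 to 37611126 reads, with the lowest depths, 8652040 to 16436145, in the A-485 experiment. Nothing in the labels says how replicate libraries within a group were obtained beyond the animal or line they name, so p-values measure the spread between these libraries. Levels are given as CPM, a gene's reads scaled to a fixed library total and for composition within each experiment. Eif4g2 fell as labelled in every deletion group, for example from 318.7 to 384.0 CPM in heterozygous Rosa26(CreER) villi to 48.32 to 61.68 in homozygous ones, and stayed at 1110 to 1711 in the A-485 libraries. In Vil1(CreER) crypts it fell only from 437.4 to 488.0 to 230.7 to 239.8. Mitochondrial transcripts took 13.7 to 25.2% of the reads in homozygous Rosa26(CreER) crypts and 6.24 to 12.4% in heterozygous ones, and 30.4 to 40.3% against 17.5 to 30.8% in Vil1(CreER) crypts. Y-linked transcripts were present in all 5 heterozygous Rosa26(CreER) crypt libraries and in 1 of 4 homozygous ones, and in all 5 heterozygous and 2 of 5 homozygous Rosa26(CreER) villus libraries, so sex and genotype overlapped in part in both tissues. Among the spheroids, flox/flox lines 1 and 3 and flox/+ lines 4 and 5 stood apart, with 5 intestinal stem cell markers summing to 3078 to 10040 CPM in DMSO against 113.6 to 400.5 in the other 7 lines. The names of some spheroid lines share a number and differ only in a letter. Flox/flox lines 1 and 3 share one, and flox/+ lines 2, 3 and 4 another. Flox/flox lines 2, 4 and 5 share theirs with flox/+ line 1, and flox/flox line 6 with flox/+ line 5. No fit used that number to group lines. Epithelial markers were present in every group. In these bulk libraries, fewer cells of a type and less RNA per cell cannot be told apart.

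CPM values compare libraries for 1 gene. Levels of different genes are compared as CPM per kb of gene length. In DMSO-treated organoids of the first set, Nfe2l2 was the most abundant of the 8 transcripts at 120.6 CPM per kb, followed by Txnrd1 at 62.64 and Srxn1 at 42.6. Hmox1 was the least abundant at 4.908, and Keap1 at 21.04 lay just under Gclm at 24.64. Nfe2l2 also led in spheroids with DMSO, at 88.64 CPM per kb, and in heterozygous crypts, at 34.17 (Rosa26) and 41.93 (Vil1). Its lead over Txnrd1 in heterozygous Rosa26 crypts, where Txnrd1 had 33.43, was smaller than the spread between animals. Nfe2l2 did not lead in the control organoids of the second set. With flox/+, Txnrd1 had 61.26 CPM per kb and Nfe2l2 51.28. With intact Eif4g2, Txnrd1 at 68.01 and Gclc at 56.78 lay above Nfe2l2 at 52.64. Hmox1 was the lowest of the 8 in heterozygous tissue, in organoids with intact Eif4g2 or with DMSO and in flox/flox spheroids with DMSO, from 0.2455 CPM per kb in Vil1 crypts to 8.633 in the spheroids.

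**Figure D1:**
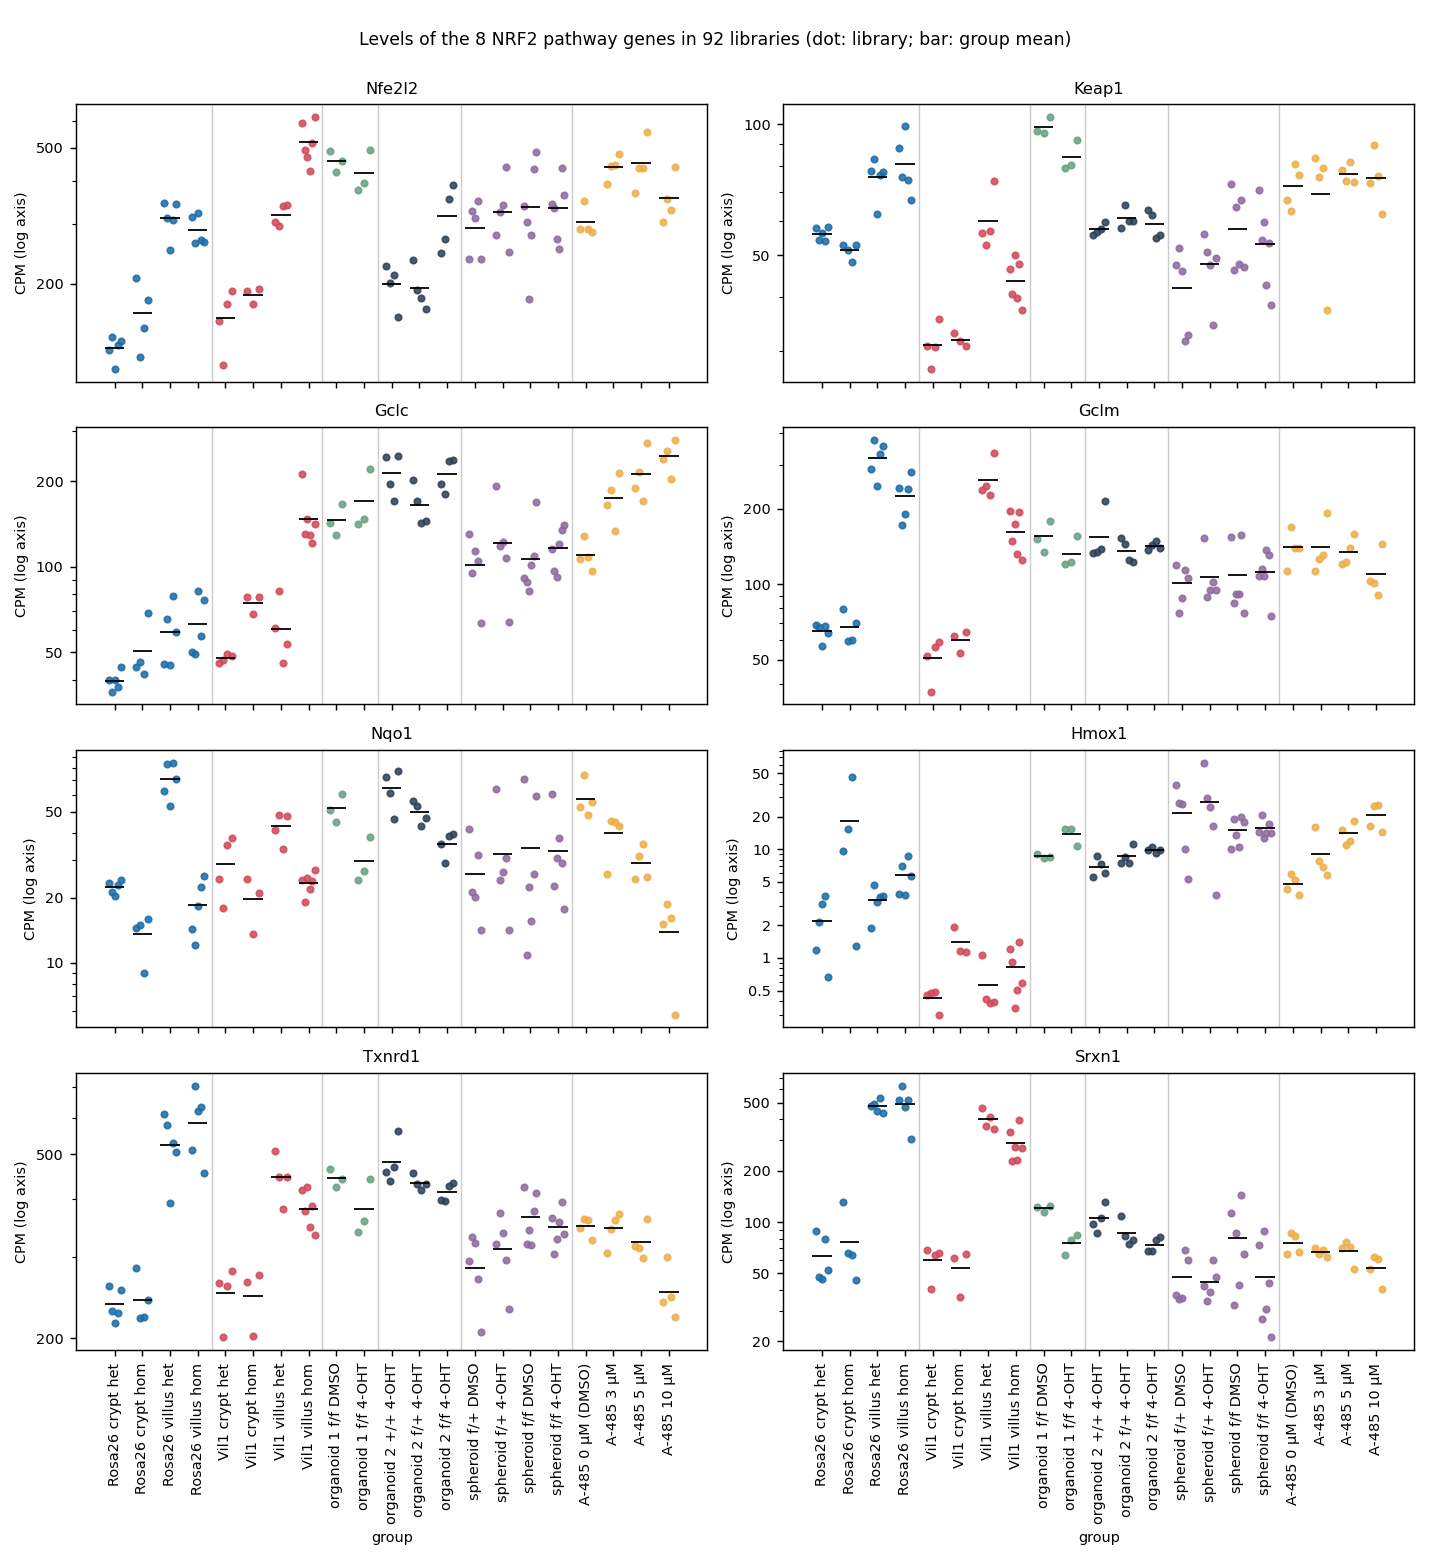
Level of each of the 8 genes in the 92 libraries, as CPM on a log axis, with 1 dot per library and a bar at each group's mean; het is flox/+, hom and f/f are flox/flox, and +/+ carries CreER with intact Eif4g2. Nqo1 is high in heterozygous Rosa26 villi, at 53.02 to 84.33, and low at 10 µM A-485, at 5.762 to 18.72.

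The series holds no tissue with intact Eif4g2, so the crypt-villus axis is described in heterozygous mice. Every gene had the higher mean in villi there. For Hmox1 in Vil1 tissue that mean held 1 high villus library, at 1.068 CPM against 0.3863 to 0.4160 in the others. Hmox1 was lower in crypts in only 2 of those 4 animals. Srxn1, the sulfiredoxin that repairs overoxidised peroxiredoxins, had the steepest gradient. It read 88.96, 47.44, 46.70, 79.36 and 52.52 CPM in the 5 Rosa26 heterozygous crypts and 479.8, 489.9, 445.0, 533.1 and 436.4 in villi of the same animals. The villus mean was 7.57 times the crypt mean there and 6.68 times in Vil1 tissue, and crypts and villi did not overlap in either. The log2 difference of crypt minus villus was -2.93 (SE 0.19, adjusted p = 3.48e-08) with Rosa26 and -2.69 (SE 0.17, adjusted p = 4.64e-07) with Vil1. On the per-kb scale this put Srxn1 first among the 8 genes in villi, at 169.1 and 141.6 CPM per kb, and below Nfe2l2 and Txnrd1 in crypts.

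Gclm, the modifier subunit of glutamate-cysteine ligase, was 4.93 times as high in Rosa26 villi as in crypts and 5.12 times as high in Vil1 tissue. Its catalytic partner Gclc differed by only 1.48 and 1.27 times. Nfe2l2 was 2.40 and 2.00 times as high in villi, Txnrd1 2.21 and 1.78 times, and Keap1 1.35 and 1.93 times. Nqo1 was 3.16 times as high in villi with Rosa26, and 1.49 times with Vil1, where its crypt and villus values overlapped and its test was missed (log2 difference -0.52, adjusted p = 0.0569). In Rosa26 tissue 7 of the 8 genes were called lower in crypts, which means an adjusted p under 0.05 in edgeR's quasi-likelihood test over all genes, where 77.1% of all genes differed and 36.4% were lower. In Vil1 tissue 5 of 8 were called lower, where 67.9% of all genes differed and 32.7% were lower. Hmox1 was called in neither. The direction held in every one of 5 Rosa26 animals for the 7 called genes, and in every one of 4 Vil1 animals for the 5 called genes.

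**Figure D2:**
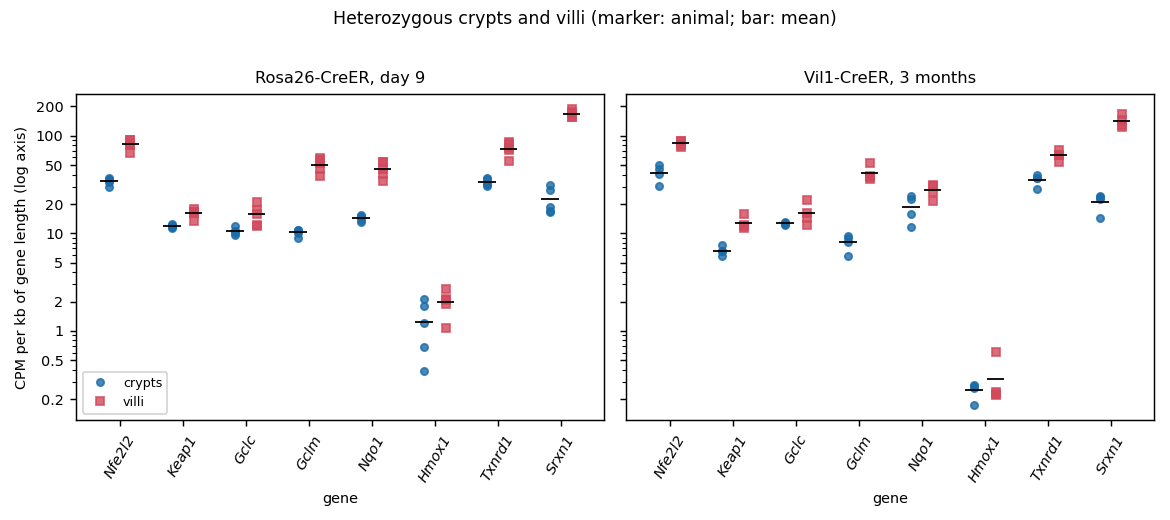
Levels in heterozygous crypts (circles) and villi (squares) of Rosa26(CreER) mice on day 9 and Vil1(CreER) mice at 3 months, as CPM per kb of gene length on a log axis, with 1 marker per animal and a bar at the mean. Srxn1 moves from a mean of 22.34 to 169.1 in Rosa26 tissue, while Gclc moves from 10.54 to 15.62.

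After deletion of Eif4g2 the target genes did not move as a block. By edgeR, Nqo1 was called lower and Hmox1 higher in several of the comparisons, in tissue and in organoids. Gclc was called higher in Vil1 crypts and villi only. Gclm, Txnrd1 and Srxn1 were lower or did not pass the test. Counts of called genes among the 8 have to be read against the share of all genes called, which was large throughout. Homozygous against heterozygous, 2 of 8 were called in Rosa26 crypts, where 20.2% of all genes were, and 2 of 8 in Rosa26 villi, where 33.2% were. In Vil1 tissue 2 of 8 were called in crypts, against 29.3% of all genes, and 6 of 8 in villi, against 42.5%. In organoids, 3 of 8 were called for 4-OHT against DMSO in the first set, where 35.4% of all genes were called. In the second set 2 of 8 were called for flox/flox against flox/+, against 46.8% of all genes, and 5 of 8 for flox/flox against intact Eif4g2, against 45.3%. These 2 comparisons of the second set share the flox/flox libraries. Apart from Vil1 villi and flox/flox against intact Eif4g2, the counts lay near or below the shares over all genes.

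No member passed the test for flox/+ against intact Eif4g2 in organoids, where 0.113% of all genes were called. There 3 of the 8 had an unadjusted p under 0.05, all lower in flox/+, and DESeq2 called none. The 3 were Nqo1 (log2 fold change -0.37, adjusted p = 0.416), Gclc (-0.37, adjusted p = 0.409) and Txnrd1 (-0.15, adjusted p = 0.476).

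**Figure D3:**
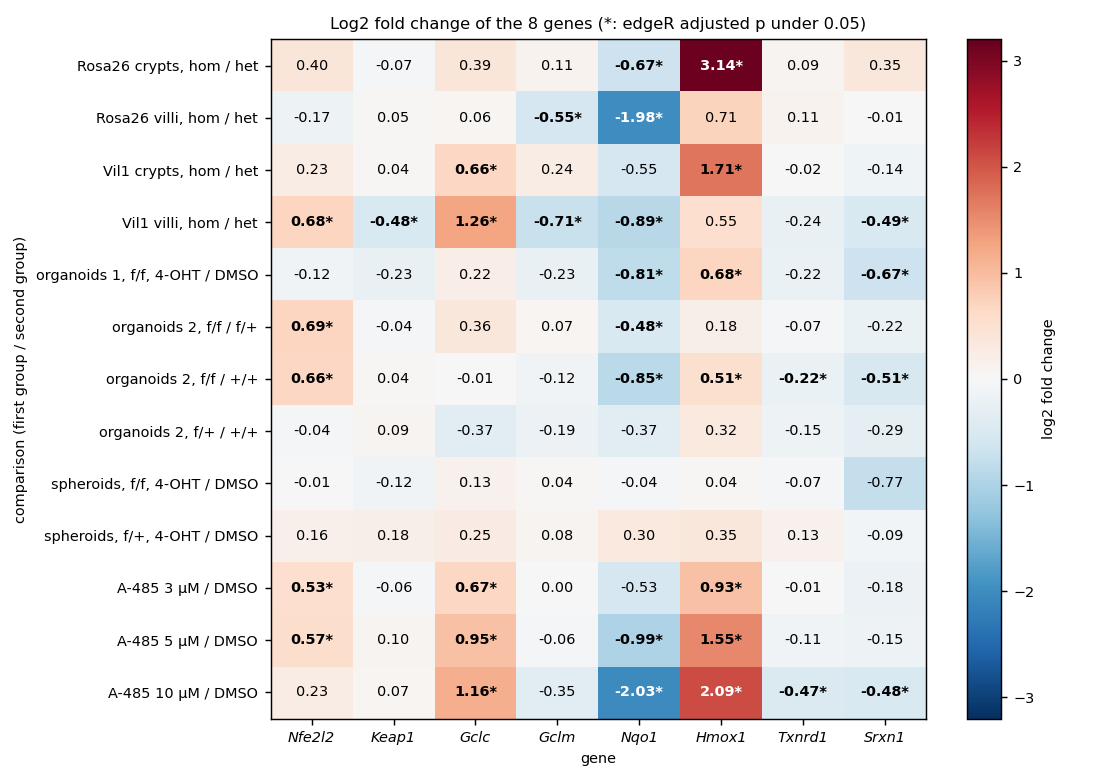
Log2 fold change of the 8 genes (columns) in 13 comparisons (rows, first group against second), with colour from blue (lower) to red (higher), f/f for flox/flox and f/+ for flox/+; an asterisk marks an edgeR adjusted p under 0.05. Nqo1 carries negative values in 12 of the 13 rows, and the called positive values all belong to Hmox1, Gclc or Nfe2l2.

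Of the regulators, Nfe2l2 rose in some deletion models and Keap1 changed in 1. In Vil1 villi Nfe2l2 read 302.4, 294.4, 338.5 and 339.2 CPM in the heterozygous animals, and 428.0 at the lowest, 505.0 at the median and 615.1 at the highest in the 6 homozygous ones. The groups did not overlap, and the log2 fold change was 0.68 (SE 0.13, adjusted p = 0.000981). In the same libraries Keap1 read 56.15, 52.79, 56.70 and 74.26 CPM against 37.39 at the lowest, 43.58 at the median and 50.16 at the highest. Again the groups did not overlap, with Keap1 lower by a log2 fold change of -0.48 (SE 0.13, adjusted p = 0.00893). The transcript of the activator was thus higher and that of its inhibitor lower in the same villi.

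In the second organoid set Nfe2l2 read 245.6, 269.8, 353.4 and 390.2 CPM in flox/flox organoids, 235.4, 192.2, 182.2 and 168.8 in flox/+, and 225.7, 201.2, 211.9 and 160.4 with intact Eif4g2. Every flox/flox library lay above every library of the other 2 groups. The log2 fold change was 0.69 (SE 0.16, adjusted p = 0.00455) against flox/+ and 0.66 (SE 0.16, adjusted p = 0.00656) against intact Eif4g2. The first organoid set did not repeat this: Nfe2l2 read 490.0, 425.3 and 458.5 with DMSO and 376.1, 394.6 and 493.4 with 4-OHT (log2 fold change -0.12, adjusted p = 0.487). In Rosa26 crypts the homozygous values of 207.9, 122.3, 148.7 and 179.5 overlapped the heterozygous range of 112.7 to 139.7 (log2 fold change 0.40, adjusted p = 0.0703). That value passed without homozygous replicate 3 (0.51, adjusted p = 0.0237) and in DESeq2 (adjusted p = 0.0399). In Rosa26 villi the change was -0.17 (adjusted p = 0.259).

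Keap1 was not called by edgeR in the other comparisons of flox/flox with a control. In Rosa26 crypts it read 52.69, 51.27, 48.24 and 52.76 CPM in homozygous and 57.59, 54.09, 56.33, 53.85 and 58.08 in heterozygous animals, a log2 fold change of -0.07 (adjusted p = 0.449). In the first organoid set it was lower with 4-OHT in each of 3 lines, from 96.50, 95.66 and 104.0 to 79.51, 80.67 and 91.91 CPM. That change of -0.23 was missed by edgeR (adjusted p = 0.0748). It passed with line as a block (-0.23, adjusted p = 0.0347), with DESeq2 size factors (-0.26, adjusted p = 0.0457), in DESeq2 (-0.26, adjusted p = 0.0296) and without the third 4-OHT library (-0.30, adjusted p = 0.0155).

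The 2 subunits of glutamate-cysteine ligase, the rate-limiting enzyme of glutathione synthesis, diverged. Gclc rose and Gclm fell in Vil1 villi. Gclc read 60.81, 82.40, 45.71 and 53.53 CPM in heterozygous Vil1 villi, and 121.2 at the lowest, 136.2 at the median and 212.9 at the highest in homozygous ones. All 6 homozygous values were above all 4 heterozygous ones, a log2 fold change of 1.26 (SE 0.19, adjusted p = 0.000157). Gclm read 238.3, 245.3, 226.2 and 332.6 CPM in the heterozygous villi against 125.1 at the lowest, 161.3 at the median and 195.1 at the highest. Here every homozygous value was below every heterozygous one, a log2 fold change of -0.71 (SE 0.16, adjusted p = 0.00301).

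Gclc rose in Vil1 crypts as well, from 45.80, 46.82, 49.32 and 48.36 CPM to 77.97, 68.02 and 78.32, with no overlap (log2 fold change 0.66, SE 0.08, adjusted p = 0.000653). Gclm did not follow there (0.24, adjusted p = 0.301), with 51.64, 37.20, 56.14 and 58.52 in heterozygous and 61.83, 53.16 and 64.38 in homozygous crypts. The fall of Gclm in Vil1 villi differed from its change in crypts of that model: the interaction was -0.92 (SE 0.24, adjusted p = 0.0178), in a test that called 15.5% of all genes and 1 of the 8. The interaction of Gclc was 0.63 and was missed (adjusted p = 0.0865). That of Keap1 was -0.49 and missed (adjusted p = 0.0581), and passed with animal as a block (-0.54, adjusted p = 0.0312). Without homozygous crypt replicate 1 the Gclm interaction was -0.88 and was also missed (adjusted p = 0.0546).

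In Rosa26 tissue Gclm fell in villi, and Gclc was not called by edgeR in either tissue. Gclm read 242.2, 172.6, 191.1, 240.1 and 280.4 CPM in homozygous villi and 287.8, 376.4, 245.7, 331.4 and 356.7 in heterozygous ones. The groups overlapped, and the log2 fold change was -0.55 (SE 0.16, adjusted p = 0.0182), missed without homozygous replicate 3 (-0.48, adjusted p = 0.0516). With presence of Y-linked transcripts in the model it was -0.67 (adjusted p = 0.0468). Gclc had 49.45 to 82.32 against 44.95 to 78.74 CPM in the same villi (log2 fold change 0.06, adjusted p = 0.848). In Rosa26 crypts Gclc read 44.34, 46.22, 42.01 and 68.74 in homozygous and 39.92, 36.31, 39.96, 37.88 and 44.33 in heterozygous animals, a log2 fold change of 0.39 that edgeR missed (SE 0.12, adjusted p = 0.0519) and DESeq2 called (0.39, adjusted p = 0.0455). With presence of Y-linked transcripts in the model it was 0.24 (adjusted p = 0.428). The changes of Gclc in the Rosa26 and Vil1 models were not tested against each other. In the organoid sets neither subunit was called. Gclc had 195.1, 180.9, 235.9 and 237.1 CPM in flox/flox organoids of the second set, 142.9 to 201.9 in flox/+ and 170.3 to 245.5 with intact Eif4g2. Its rise over flox/+ of 0.36 was missed by edgeR (adjusted p = 0.063) and passed in DESeq2 (0.37, adjusted p = 0.0233). Gclm was lower with 4-OHT in each of the 3 lines of the first organoid set, from 151.6, 134.5 and 179.0 to 119.9, 122.3 and 154.9 CPM, and that change of -0.23 passed only with line as a block (adjusted p = 0.0494 against 0.251 without).

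Nqo1, a quinone reductase and one of the most used reporters of NRF2 activity, fell in 6 of the 7 comparisons of flox/flox with a control in tissue and organoids. The steepest fall was in Rosa26 villi, where Nqo1 read 14.35, 12.11, 18.25, 22.52 and 25.25 CPM in homozygous and 62.51, 82.84, 53.02, 84.33 and 70.99 in heterozygous animals. The groups were far from overlapping, and the log2 fold change was -1.98 (SE 0.21, adjusted p = 8.23e-05), and -2.46 with presence of Y-linked transcripts in the model (adjusted p = 0.000171). In Rosa26 crypts it read 14.43, 14.98, 8.943 and 15.90 against 23.44, 21.26, 20.35, 22.82 and 24.15, again with no overlap (-0.67, SE 0.15, adjusted p = 0.0155). With presence of Y-linked transcripts in the model the crypt value was -0.55 and was missed (adjusted p = 0.186). The gradient from crypt to villus seen in heterozygous Rosa26 mice was thus small in homozygous ones, whose villi at 12.11 to 25.25 CPM overlapped their crypts at 8.943 to 15.90. The interaction of genotype with tissue was -1.21 (SE 0.27, adjusted p = 0.0115), the only 1 of the 8 genes called where 11.5% of all genes were. With animal as a block 777 genes were called in place of 1904, and the same count of 1 among the 8.

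In Vil1 villi Nqo1 read 41.37, 48.38, 33.74 and 47.81 CPM in heterozygous animals and 19.16 at the lowest, 24.02 at the median and 26.93 at the highest in homozygous ones. There was no overlap (log2 fold change -0.89, SE 0.13, adjusted p = 0.00013). In Vil1 crypts the values of 24.53, 13.59 and 20.95 against 24.49, 18.00, 35.04 and 37.71 overlapped, and the change of -0.55 was missed (adjusted p = 0.237). The first organoid set gave 50.78, 45.02 and 60.33 CPM with DMSO and 24.29, 26.66 and 38.06 with 4-OHT, lower in each of 3 lines (-0.81, SE 0.19, adjusted p = 0.015). In the second set Nqo1 was 35.35, 28.95, 38.79 and 39.28 in flox/flox, 56.31, 53.32, 42.76 and 46.83 in flox/+, and 72.69, 61.26, 46.26 and 77.37 with intact Eif4g2. No flox/flox library reached the other groups, with a log2 fold change of -0.48 (SE 0.16, adjusted p = 0.0219) against flox/+ and -0.85 (SE 0.15, adjusted p = 0.000699) against intact Eif4g2. The comparison with flox/+ was missed without flox/flox replicate 2 (-0.39, adjusted p = 0.0604), without flox/+ replicate 1 (-0.42, adjusted p = 0.0619), without flox/+ replicate 2 (-0.45, adjusted p = 0.0565) and with no filter on low counts (-0.49, adjusted p = 0.0681).

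Hmox1, the inducible heme oxygenase, also called HO-1, had low and uneven counts. It rose in crypts of both Cre models and in organoids. In Rosa26 crypts it read 9.533, 15.24, 46.32 and 1.290 CPM in homozygous replicates 1, 3, 4 and 5, and 1.190, 2.119, 3.129, 3.720 and 0.6736 in heterozygous ones. Homozygous replicate 5 lay within the heterozygous range and replicate 4 far above the rest. The log2 fold change was 3.14 (SE 0.88, adjusted p = 0.0353), and 2.03 and missed without replicate 4 (adjusted p = 0.111). It was also missed without homozygous replicate 3 (adjusted p = 0.0575) and without any 1 of the 5 heterozygous libraries (adjusted p = 0.0511 to 0.0817). With presence of Y-linked transcripts in the model it was 2.22 and missed (adjusted p = 0.26), and it was missed with the series of animal numbers in the model (2.98, adjusted p = 0.0535) and with no filter on low counts (3.19, adjusted p = 0.0995).

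Hmox1 is also strongly expressed by macrophages that recycle heme, and 6 macrophage markers (Adgre1, C1qa, C1qb, Csf1r, Mrc1 and Cd163) moved with it in these crypts. Their summed level was 146.5, 156.0, 346.1 and 9.582 CPM in homozygous replicates 1, 3, 4 and 5, in the same order as Hmox1. In the heterozygous crypts it was 25.73, 31.00, 66.95, 45.60 and 7.747, with the lowest sum again in the library with the lowest Hmox1. Of the 6 markers 2 were called higher and none lower, Mrc1 by 2.65 (adjusted p = 0.0428) and Cd163 by 3.76 (adjusted p = 0.0323) on the log2 scale. Stromal markers summed to 33.96 to 1982 CPM in homozygous and 20.92 to 813.4 in heterozygous crypts, with none of 5 called. The part of other cell types in the Hmox1 result was not tested.

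In Vil1 crypts Hmox1 read 1.917, 1.168 and 1.145 CPM in homozygous and 0.4513, 0.4796, 0.4871 and 0.3012 in heterozygous animals. The groups did not overlap, at a low level, with a log2 fold change of 1.71 (SE 0.35, adjusted p = 0.00731). Macrophage markers summed to 11.06 to 17.33 CPM against 3.434 to 4.780 in these crypts, and 4 of the 5 that could be tested were called higher. Their part in the result was not tested. In villi Hmox1 was not called. Rosa26 villi had 3.866, 7.043, 3.787, 8.602 and 5.648 CPM against 1.883, 4.669, 3.268, 3.655 and 3.675 (log2 fold change 0.71, adjusted p = 0.0781), which passed in DESeq2 (adjusted p = 0.0487). Vil1 villi had 0.3498 to 1.399 against 0.3863 to 1.068 (0.55, adjusted p = 0.37).

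**Figure D4:**
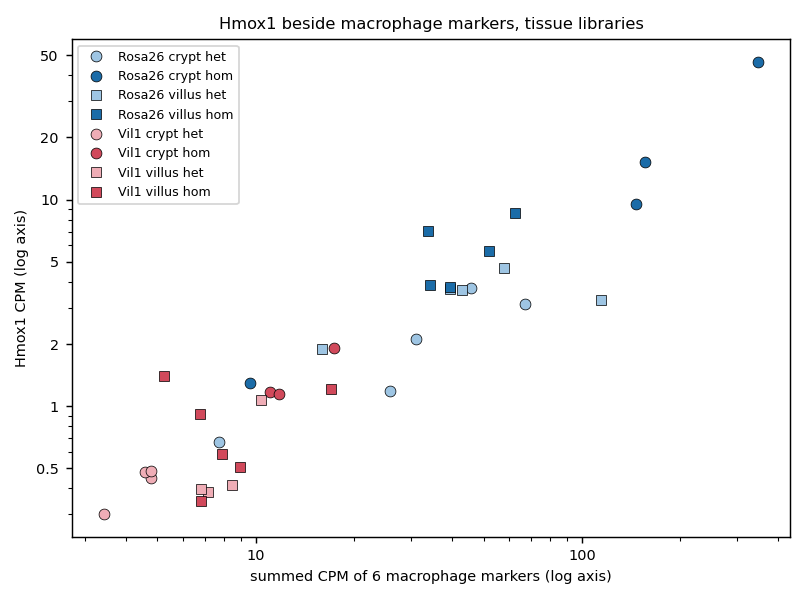
Hmox1 (vertical, CPM, log axis) against the summed level of 6 macrophage markers (horizontal, CPM, log axis) in the tissue libraries, with circles for crypts, squares for villi, blue for Rosa26, red for Vil1, pale for heterozygous and dark for homozygous. The library at the upper right is homozygous Rosa26 crypt replicate 4, with 46.32 CPM of Hmox1 and 346.1 CPM of markers.

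Organoids are epithelial cultures. The macrophage markers Adgre1, C1qb and Cd163 had 0 reads in both groups of the first set, while the 6 markers together summed to 3.898 to 6.908 CPM with DMSO and 5.552 to 19.92 with 4-OHT. Of the 6, 2 could be tested there and 1 was called higher with 4-OHT. Hmox1 read 8.289 to 9.032 CPM with DMSO and 15.30, 15.33 and 10.70 with 4-OHT, higher in each of 3 lines. The log2 fold change was 0.68 (SE 0.17, adjusted p = 0.0186). Leaving out any 1 library other than the third 4-OHT library left it short of the threshold (adjusted p = 0.0525 to 0.0765), as did adding the A-485 libraries to the fit (0.69, adjusted p = 0.133). In the second set Hmox1 was 9.823, 10.47, 9.209 and 9.849 CPM in flox/flox and 5.544, 8.645, 7.263 and 6.083 with intact Eif4g2, with no overlap (0.51, SE 0.16, adjusted p = 0.0192). That call was missed without intact replicate 1 (0.42, adjusted p = 0.0594) or 4 (0.45, adjusted p = 0.0548). Against flox/+, with 7.460 to 11.14 CPM, the change was 0.18 and was missed (adjusted p = 0.378). Of 2 macrophage markers tested for flox/flox against intact Eif4g2, 1 was called higher and 1 lower. The part of these markers in the organoid results was not tested.

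Txnrd1, the cytosolic thioredoxin reductase, was called in 1 of the 7 comparisons of flox/flox with a control in tissue and organoids. In Rosa26 crypts it read 283.4, 220.9, 222.2 and 241.4 CPM in homozygous and 259.5, 228.7, 215.7, 226.2 and 254.4 in heterozygous animals (log2 fold change 0.09, adjusted p = 0.574). In Vil1 villi it had 335.1 to 424.1 against 381.2 to 507.9 (-0.24, adjusted p = 0.124). That call was in the second organoid set, 398.7, 396.2, 426.1 and 432.9 CPM in flox/flox against 457.6, 438.6, 470.0 and 561.6 with intact Eif4g2 (-0.22, SE 0.07, adjusted p = 0.0187). The groups did not overlap, and the call was missed without flox/flox replicate 2 (-0.20, adjusted p = 0.0554) or intact replicate 4 (-0.14, adjusted p = 0.063).

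Srxn1 fell in organoids and in Vil1 villi. The first organoids read 122.4, 114.3 and 123.7 CPM with DMSO and 64.12, 78.75 and 83.78 with 4-OHT, lower in each of 3 lines and with no overlap. The log2 fold change was -0.67 (SE 0.11, adjusted p = 0.00375). The second set gave 67.49, 67.77, 78.06 and 81.60 in flox/flox and 97.70, 86.49, 105.2 and 131.4 with intact Eif4g2 (-0.51, SE 0.14, adjusted p = 0.0107), also with no overlap. The 4 flox/+ libraries, at 74.77 to 108.7 CPM, overlapped both. In Vil1 villi Srxn1 had 466.7, 366.8, 414.0 and 349.2 CPM in heterozygous animals and 226.8 at the lowest, 273.4 at the median and 394.0 at the highest in homozygous ones. These ranges overlapped, and the fall of -0.49 (SE 0.16, adjusted p = 0.0247) was missed without heterozygous replicate 1 (-0.42, adjusted p = 0.0828), heterozygous replicate 3 (-0.48, adjusted p = 0.0556) or homozygous replicate 2 (-0.44, adjusted p = 0.0541). In Rosa26 villi it did not differ by more than the spread, with 304.4 to 629.3 against 436.4 to 533.1 (-0.01, adjusted p = 0.957).

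These shifts stood beside a change in epithelial cell types. In Rosa26 crypts 4 of 5 stem cell markers were called lower, their sum being 200.9 to 854.2 CPM in homozygous and 3827 to 6542 in heterozygous animals, and all 5 Paneth cell markers were called lower. In Vil1 crypts 3 of 5 stem cell markers and all 5 Paneth cell markers were called lower. In Rosa26 villi, where Nqo1 fell most, none of 6 enterocyte markers was called and their sum was 39140 to 63310 CPM against 42870 to 56830. In Vil1 villi 1 of the 6 was called, lower. Some markers of other villus cell types were lower. In Rosa26 villi 2 of 5 goblet, 2 of 3 tested enteroendocrine and 3 of 4 tuft cell markers were called lower, with goblet sums of 1909 to 9563 CPM against 5327 to 13890 and tuft sums of 17.31 to 60.65 against 62.48 to 330.4. In Vil1 villi all 5 goblet, all 3 tested enteroendocrine and all 4 tuft cell markers were called lower, with goblet sums of 1254 to 2151 against 6859 to 11420 and tuft sums of 3.862 to 6.701 against 68.81 to 113.0. In the first organoid set 5 of 5 stem cell and 5 of 6 enterocyte markers were called lower with 4-OHT, the enterocyte sum being 4452 to 6689 against 10310 to 14070 CPM. In flox/flox organoids of the second set all 5 stem cell and all 5 Paneth cell markers were called lower against flox/+ and against intact Eif4g2, with stem cell sums of 1568 to 2513 CPM against 5845 to 7872 and 6205 to 8053. There 2 of 6 enterocyte markers were called lower in each, and the enterocyte sum of 3964 to 7068 CPM overlapped those of 4083 to 8565 and 5245 to 8759. The share of mitochondrial reads was also higher in the homozygous crypts of both models. The part of these cell types and of the mitochondrial share in the members' changes was not tested.

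In fetal spheroids with flox/flox none of the 8 genes passed the unblocked test for 4-OHT against DMSO in edgeR or in DESeq2, where 19.1% of all genes were called by edgeR (2864 genes, and 4649 with line as a block), and 1 of the 8 had an unadjusted p under 0.05. That gene was Srxn1, with 32.70 at the lowest, 75.91 at the median and 144.8 CPM at the highest with DMSO, and 21.11, 37.66 and 88.05 with 4-OHT. It was lower in 5 of 6 lines (log2 fold change -0.77, SE 0.36, adjusted p = 0.146) and passed with line as a block (-0.78, adjusted p = 0.0384). With flox/flox lines 1 and 3 and flox/+ lines 4 and 5 left out, a choice made after seeing the data, it was -1.21 and passed (adjusted p = 0.0377). Nqo1 was spread widely among the lines, from 10.91 to 70.53 CPM with DMSO and 17.71 to 60.68 with 4-OHT, and was higher in 4 of 6 lines (-0.04 on the log2 scale). The remaining 6 genes had log2 fold changes between -0.12 and 0.13. The changes in spheroids and organoids were not tested against each other.

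In flox/+ spheroids 0% of all genes were called for 4-OHT against DMSO, 15 genes had an unadjusted p under 0.05 and DESeq2 called 0. None of these 15 was a member. The 2 largest values among the 8 were 0.35 for Hmox1 and 0.30 for Nqo1, with adjusted p = 0.9999 for each of the 8. The difference between the 4-OHT effects in flox/flox and flox/+ spheroids was called for 1.62% of all genes (243, and 2758 with line as a block) and for none of the 8 by edgeR or DESeq2, with none at an unadjusted p under 0.05. Srxn1 had the largest difference at -0.68 (SE 0.53, adjusted p = 0.647). Between genotypes, 10.5% of all genes differed with 4-OHT and 0% with DMSO, and none of the 8 was called in either by edgeR or DESeq2. At an unadjusted p under 0.05 none of the 8 stood with 4-OHT and 2 with DMSO, Keap1 (0.46, adjusted p = 0.651) and Txnrd1 (0.36, adjusted p = 0.642), where 1084 of 15032 genes did and DESeq2 called 9.

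Hmox1 differed among spheroid lines more than between treatments. In flox/+ lines 1 to 5 it read 39.21, 26.63, 26.12, 10.04 and 5.353 CPM with DMSO and 62.54, 29.72, 24.64, 16.44 and 3.767 with 4-OHT. Lines 4 and 5, which held the high stem cell markers, had the lowest Hmox1 in both. With 4-OHT the difference of flox/flox from flox/+ was -0.82 (SE 0.48, adjusted p = 0.308), and -1.25 with only the 7 lines of low stem cell markers, when it passed (adjusted p = 0.0303). The macrophage markers Adgre1, C1qb and Cd163 had 0 reads in all spheroid libraries. The 6 markers together summed to 9.401 to 25.17 CPM in flox/+ spheroids with DMSO and 8.242 to 38.97 with 4-OHT. In flox/flox spheroids they summed to 13.43 to 52.49 with DMSO and 12.09 to 38.16 with 4-OHT. Of the 6, 2 could be tested, and neither was called between treatments or genotypes. Their part in the Hmox1 values was not tested.

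Spheroids differed from adult organoids of the same genotype and treatment. With both scaled together, Hmox1 had a median of 25.55 CPM (3.889 to 64.61) in flox/+ spheroids with 4-OHT and of 7.586 (7.104 to 10.71) in flox/+ organoids with 4-OHT. Nfe2l2 had 255.0 to 461.2 against 162.3 to 224.2, and Srxn1 had 35.74 to 62.75 against 71.54 to 103.5, neither with overlap. Of the 8, 4 were called where 47.9% of all genes were: Nfe2l2 higher (log2 fold change 0.86, adjusted p = 0.00307), Hmox1 higher (1.78, adjusted p = 0.0442), Srxn1 lower (-0.83, adjusted p = 0.00364) and Txnrd1 lower (-0.36, adjusted p = 0.045). The calls of Nfe2l2 and Srxn1 held in all 14 alternatives, while that of Txnrd1 was lost in 12 of 14 and that of Hmox1 in 8 of 14, each of them without any 1 of the 4 organoid libraries and with no filter on low counts among others. Without spheroid lines 4 and 5, Hmox1 was 2.33 higher (adjusted p = 0.000432) and Txnrd1 was missed (-0.17, adjusted p = 0.0965). Without spheroid line 1, Hmox1 was 1.23 and was missed (adjusted p = 0.0825), and Nqo1 at -0.94 passed (adjusted p = 0.00842) where it had been -0.53 and missed (adjusted p = 0.243). Of the 6 macrophage markers, 2 could be tested here and both were called higher in spheroids, and their part was not tested. Organoids and spheroids came from separate preparations, so the culture type and the preparation cannot be told apart.

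With A-485 the 8 genes moved in both directions. The group means of Gclc and Hmox1 went up with the dose, that of Nqo1 went down, and Nfe2l2 passed the test at 3 and 5 µM and not at 10 µM. All 3 doses are compared with the same 4 DMSO libraries. At 3 µM 3 of 8 were called, where 19.2% of all genes were; at 5 µM 4 of 8, where 49.6% were; and at 10 µM 5 of 8, where 62.0% were. At 5 and 10 µM the members' shares were thus close to those of all genes.

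Gclc read 106.6, 128.0, 108.6 and 96.43 CPM in DMSO in lines 1 to 4, 165.3, 186.1, 133.4 and 213.9 at 3 µM, 189.7, 215.2, 170.8 and 272.6 at 5 µM, and 239.5, 256.7, 203.6 and 279.9 at 10 µM. It rose in each line at each step of the dose, and no treated library reached down to the DMSO range. The log2 fold changes over DMSO were 0.67 (SE 0.16, adjusted p = 0.00614), 0.95 (SE 0.16, adjusted p = 8.07e-05) and 1.16 (SE 0.16, adjusted p = 5.03e-06). Its partner Gclm gave 112.9, 169.8, 138.8 and 139.7 in DMSO and 103.3, 101.4, 90.37 and 144.3 at 10 µM, lower in 3 of 4 lines (-0.35, adjusted p = 0.0859, and -0.37 with line as a block, adjusted p = 0.0151).

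Hmox1 read 4.314, 5.914, 5.169 and 3.792 CPM in DMSO, 16.07, 7.764, 6.900 and 5.734 at 3 µM, 14.95, 11, 12.01 and 18.12 at 5 µM, and 16.48, 25.23, 25.77 and 14.29 at 10 µM. All libraries at 5 and 10 µM lay above all in DMSO. The log2 fold changes were 0.93 (SE 0.31, adjusted p = 0.0433), 1.55 (SE 0.31, adjusted p = 0.00047) and 2.09 (SE 0.31, adjusted p = 1.33e-05). Line 1, the wild-type line, stood high at 3 µM, and without it there the value was 0.51 and missed (adjusted p = 0.232). The 3 µM call was lost in 7 of 13 alternatives: it was missed also without any 1 of the 4 DMSO libraries (adjusted p = 0.0543 to 0.126), without line 2 at 3 µM (1.00, adjusted p = 0.051) and with only both groups in the fit (0.94, adjusted p = 0.0892). The calls at 5 and 10 µM held in all 13. Macrophage markers summed to 1.918 to 2.665 CPM in DMSO, 1.404 to 6.143 at 3 µM, 0.3027 to 3.758 at 5 µM and 0.07167 to 1.126 at 10 µM, with Adgre1, C1qb and Cd163 at 0 reads in each group. Their part in the result was not tested.

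Nqo1 read 52.61, 73.68, 48.22 and 55.72 CPM in DMSO, 25.67, 45.34, 44.98 and 43.00 at 3 µM, 24.40, 31.23, 35.53 and 24.86 at 5 µM, and 15.12, 18.72, 16.10 and 5.762 at 10 µM. It was lower in each of 4 lines at each dose, and from 3 µM on no treated library overlapped DMSO. The 3 µM value of -0.53 was missed (adjusted p = 0.171), while -0.99 at 5 µM (SE 0.27, adjusted p = 0.00482) and -2.03 at 10 µM (SE 0.28, adjusted p = 4.25e-06) passed. On the per-kb scale Nqo1 was the third most abundant of the 8 genes in DMSO, at 37.06 CPM per kb, and the least abundant at 10 µM, at 8.967, below Hmox1 at 11.68.

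Nfe2l2 read 289.5, 350.0, 288.6 and 282.9 CPM in DMSO, 390.5, 441.0, 444.0 and 477.9 at 3 µM, 369.9, 435.6, 437.1 and 557.2 at 5 µM, and 302.5, 353.5, 328.3 and 438.8 at 10 µM. It was higher than DMSO in each line at each dose, with no overlap at 3 and 5 µM and with overlap at 10 µM. The log2 fold changes were 0.53 (SE 0.13, adjusted p = 0.00808), 0.57 (SE 0.13, adjusted p = 0.00152) and 0.23 (SE 0.13, adjusted p = 0.134). Keap1 was called at none of the 3 doses, with values of -0.06, 0.10 and 0.07.

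Txnrd1 and Srxn1 fell at the highest dose. Txnrd1 went from 346.5, 363.1, 360.0 and 326.4 CPM in DMSO to 239.0, 299.3, 245.3 and 221.7 at 10 µM with no overlap (log2 fold change -0.47, SE 0.10, adjusted p = 0.000617). Srxn1 went from 65.32, 85.91, 83.35 and 66.71 to 52.97, 62.40, 60.36 and 40.55, also with no overlap (-0.48, SE 0.15, adjusted p = 0.00833). Neither was called at 3 or 5 µM.

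Between adjacent doses, none of the 8 was called for 5 against 3 µM by edgeR or DESeq2, and none had an unadjusted p under 0.05, where 24.5% of all genes were called. Hmox1 had the largest value there, 0.61 (adjusted p = 0.151), and passed at 1.04 without 3 µM line 1 (adjusted p = 0.00988). For 10 against 5 µM, where 18.9% were called, Nqo1 fell by 1.05 on the log2 scale (adjusted p = 0.0104) and Txnrd1 fell by 0.36 (adjusted p = 0.0189). The Txnrd1 call was missed without line 1 (adjusted p = 0.0573), line 3 (adjusted p = 0.054) or line 4 (adjusted p = 0.0625) at 10 µM and without line 4 at 5 µM (adjusted p = 0.0565). With line as a block Nfe2l2 (-0.34, adjusted p = 0.0178) and Srxn1 (-0.33, adjusted p = 0.0312) passed as well.

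Cell type markers moved with the dose. All 5 stem cell, all 5 Paneth cell and all 6 enterocyte markers were called lower at 10 µM, the stem cell sum going from 6415 to 7629 CPM in DMSO to 44.22 to 76.18, with Olfm4 at 0 reads, and the enterocyte sum from 5276 to 10650 to 83.11 to 369.4. Fetal-like markers summed to 837.6 to 1047 CPM at 10 µM and 160.7 to 246.2 in DMSO, with 3 of 5 tested called higher. Their part in the members' changes was not tested.

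**Figure D5:**
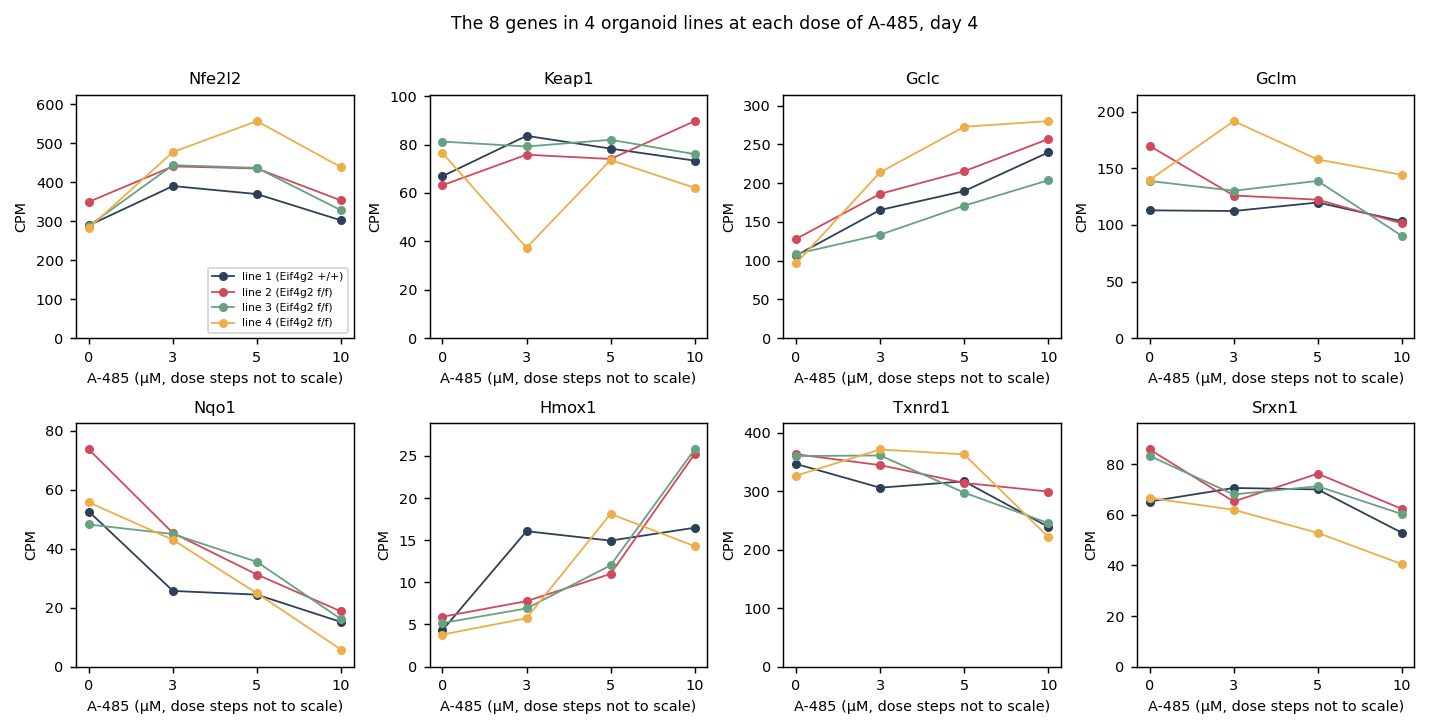
Level of each of the 8 genes in CPM (vertical axis from 0) at 0 (DMSO), 3, 5 and 10 µM A-485 (horizontal axis, steps not to scale), with 1 coloured line per organoid line. Gclc climbs and Nqo1 descends at each step of the dose in all 4 lines, with Nqo1 ending at 5.762 to 18.72 CPM.

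Across all 92 libraries, centred within each of 6 experiments, Gclm and Srxn1 followed each other most closely of the members (Pearson r = 0.866 of log2 CPM), followed by Txnrd1 and Srxn1 (r = 0.814) and Gclm and Txnrd1 (r = 0.783). Crypt and villus libraries are included, so these values carry the crypt-villus gradient that the 3 genes share. Nqo1 and Hmox1 had a weak negative correlation (r = -0.303). Among about 8900 other well-expressed genes, those most like Nqo1 were Txnrd2 (r = 0.685), Gsta3 (r = 0.680) and Lnx1 (r = 0.662). Most like Gclc were Fbxw9 (r = 0.734), Plk2 (r = 0.730) and Paqr8 (r = 0.724), and most like Hmox1 were Anxa3 (r = 0.709), Ctsl (r = 0.703) and Plat (r = 0.700). The libraries share experiments, groups and depth, so these are descriptions.

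A further 75 genes of the pathway, in 7 lists by role, place the members in context. They split in Rosa26 crypts, where 12 of the 74 tested rose and 12 fell, with a median log2 fold change of 0.04 over the lists and 0.04 over all genes. In Vil1 crypts 9 of 74 rose and 14 fell, with medians of -0.02 and 0.01. In villi falls outnumbered rises, with 6 of 73 up and 28 down in Rosa26 (-0.34 against -0.01) and 13 of 72 up and 29 down in Vil1 (-0.20 against 0.05). They did so in cultures as well. With 4-OHT in the first organoid set 9 of 74 rose and 31 fell (median -0.34, against 0.03 over all genes). In flox/flox spheroids 4 of 74 rose and 21 fell (-0.36 against -0.02), and at 10 µM A-485 19 of 73 rose and 36 fell (-0.56 against -0.05). The share of the lists called was 32.4% in Rosa26 crypts, 31.1% in Vil1 crypts, 46.6% and 58.3% in the villi, 54.1% in the organoids, 33.8% in the spheroids and 75.3% at 10 µM A-485, to be read against the shares of all genes given above.

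The regulators are 12 genes, including the BACH repressors, small MAF partners of NRF2 and parts of its degradation machinery. In crypts, the first organoids, flox/flox spheroids and at 10 µM A-485 their shares called lay near or below those of all genes. The shares were 25% against 20.2% in Rosa26 crypts, 33.3% against 29.3% in Vil1 crypts, 25% against 35.4% in the first organoids, 25% against 19.1% in flox/flox spheroids and 58.3% against 62.0% at 10 µM A-485. In the second organoid set 6 rose and 1 fell for flox/flox against flox/+, 58.3% against 46.8% of all genes. Against intact Eif4g2 4 rose and 2 fell, 50% against 45.3%. At 10 µM A-485 7 of 12 rose and 0 fell, among them Sqstm1, whose product p62 binds KEAP1 (1.66, adjusted p = 4.11e-09), and the small MAF gene Mafk (1.41, adjusted p = 2.49e-08). Mafg, another small MAF gene, rose by 0.54 in Rosa26 crypts (adjusted p = 0.00488), by 0.72 in Vil1 crypts (adjusted p = 0.00104) and by 0.71 in the first organoids (adjusted p = 0.000563). In Vil1 crypts Bach1, which encodes a repressor of Hmox1, fell by 0.52 on the log2 scale (adjusted p = 0.0183), 1 fall beside 3 rises in the list. In the spheroids 3 of 12 rose and 0 fell, among them Gsk3b (0.44, adjusted p = 0.00562) and Cul3, the ligase scaffold that KEAP1 serves (0.38, adjusted p = 0.00926).

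The glutathione list of 22 genes, peroxidases and transferases for the most part, had more falls than rises in villi, Vil1 crypts and cultures. In Rosa26 villi 8 fell and 1 rose (list median -0.62, 40.9% called against 33.2% of all genes), in Vil1 villi 10 of 21 fell and 3 rose (-0.41, 61.9% against 42.5%), and in Vil1 crypts 7 fell and 1 rose (-0.27, 36.4% against 29.3%). In the first organoid set 12 fell and 2 rose (-0.68, 63.6% against 35.4%), in flox/flox spheroids 11 fell and 0 rose (-1.44, 50% against 19.1%), and at 10 µM A-485 13 fell and 3 rose (-0.76, 72.7% against 62.0%). In Rosa26 crypts 4 fell and 4 rose (36.4% against 20.2%). The glutathione peroxidase gene Gpx2 went from 583.2 to 631.7 CPM in DMSO to 11.97 to 19.28 at 10 µM, a log2 fold change of -5.24 (adjusted p = 1.64e-12). Gsta4, a transferase for lipid-derived aldehydes, rose instead in 4 of the 5 settings: by 1.85 in Rosa26 crypts (adjusted p = 0.00213), 1.96 in Vil1 crypts (adjusted p = 0.00785), 0.79 in the first organoids (adjusted p = 0.00428) and 1.95 at 10 µM A-485 (adjusted p = 3.69e-08). Gsta1 rose by 2.82 in Rosa26 crypts (adjusted p = 0.00184), and Gstm1 fell by 1.52 in the organoids (adjusted p = 0.000444) and by 2.54 in the spheroids (adjusted p = 7.16e-05). Genes of the Gsta and Gstm families are near copies, and the way reads were shared among them is not known.

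The thioredoxin list of 11 genes had 8 falls and 2 rises at 10 µM A-485 (median -1.21, 90.9% called against 62.0% of all genes). Among them were Prdx6 (-1.82, adjusted p = 4.8e-10) and, rising, Prdx5 (1.66, adjusted p = 1.16e-07), both peroxiredoxins. In the first organoid set 3 fell and 1 rose, Txnrd3 (0.81, adjusted p = 0.00255), a share of 36.4% against 35.4% of all genes. Of 6 heme and iron genes 4 fell in the first organoid set, a share of 66.7% against 35.4% of all genes. Among these 4 were the ferritin subunits Fth1 (-0.68, adjusted p = 0.00201) and Ftl1 (-0.69, adjusted p = 0.00366), in the libraries where Hmox1 was higher. At 10 µM A-485 Fth1 fell by 0.97 (adjusted p = 6.32e-07) and Ftl1 by 0.88 (adjusted p = 3.56e-05). In Vil1 crypts Fth1 fell by 0.87 (adjusted p = 0.00269) and the iron exporter Slc40a1 by 1.41 (adjusted p = 0.0124), and Slc40a1 fell by 2.52 in the spheroids (adjusted p = 0.000948).

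Among 13 tested detoxification genes were those of the carbonyl reductases. In the first organoid set Cbr3 was at -2.18 (adjusted p = 0.000414) and Cbr1 at -1.23 (adjusted p = 0.000782), and at 10 µM A-485 Cbr3 was at -2.63 (adjusted p = 4.09e-09). In flox/flox spheroids, where Nqo1 was at -0.04, Cbr1 was at -1.56 (adjusted p = 0.00112). Of the 13, 8 fell and 3 rose in the first organoids (84.6% called against 35.4% of all genes). At 10 µM A-485 6 fell and 4 rose (76.9% against 62.0%), and in Rosa26 villi 8 fell and 1 rose (69.2% against 33.2%). The exporters Abcc4 and Abcc3 rose in the organoids and at 10 µM A-485, by 0.66 (adjusted p = 0.00877) and 0.44 (adjusted p = 0.0295) in the organoids and by 1.82 (adjusted p = 1.53e-08) and 1.40 (adjusted p = 1.67e-07) at 10 µM A-485. Of 6 NADPH-supplying genes at 10 µM A-485, G6pdx rose by 0.75 (adjusted p = 5.23e-06) and Me1 by 0.89 (adjusted p = 0.000278), while 3 fell, Tkt by 0.79 (adjusted p = 4.59e-05). The share of that list called was 83.3%, against 62.0% of all genes. Catalase (Cat) fell in all 5 settings, on the log2 scale by 0.88 in Rosa26 crypts (adjusted p = 0.00703), 1.89 in Vil1 crypts (adjusted p = 0.000106), 1.73 in the first organoids (adjusted p = 0.000754), 1.57 in the spheroids (adjusted p = 0.000473) and 1.20 at 10 µM A-485 (adjusted p = 5.38e-06).

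The 8 genes lie on 5 chromosomes of GRCm38, and the deposited start and end of each equal those of GENCODE release M21. Nfe2l2 (ENSMUSG00000015839) spans bases 75675513 to 75704641 of chromosome 2 on the minus strand, and Srxn1 (ENSMUSG00000032802) spans 152105516 to 152111376 of the same chromosome on the plus strand. Keap1 (ENSMUSG00000003308) spans 21229730 to 21239361 of chromosome 9 on the minus strand, and Gclc (ENSMUSG00000032350) spans 77754535 to 77794485 there on the plus strand. Nqo1 (ENSMUSG00000003849) spans 107388225 to 107403206 of chromosome 8 on the minus strand, and Hmox1 (ENSMUSG00000005413) spans 75093621 to 75100589 there on the plus strand. Gclm (ENSMUSG00000028124) spans 122245557 to 122270732 of chromosome 3, and Txnrd1 (ENSMUSG00000020250) spans 82833951 to 82897712 of chromosome 10, both on the plus strand. Values are totals per gene and do not resolve transcripts. All 8 genes passed the filter on low counts in every comparison, with 8 to 2222 reads per library for Hmox1 and 52 to 1878 for Nqo1.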

How the data were processed

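RNA-seq was analysed in 92 libraries in 21 groups, from 4 tables of raw read counts per gene as the authors deposited them. The submitters' processing notes name HISAT2 2.0.5 and the builds GRCm38 and mm10, and the labels' protocols describe poly(A) selection and a directional dUTP library. The counting program, its annotation and its use of strand are not given in the sources used here. Of the table's gene IDs 54409 are in GENCODE release M21, and 98.33% of these have the same start and end. Organoid libraries in Wnt-supplemented medium were not used here.

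The 8 members and the pathway lists were chosen with earlier results of these data known. Each comparison was fitted over all genes with edgeR 4.0.16 (R 4.3.3): genes filtered by filterByExpr, TMM scaling, quasi-likelihood test with robust dispersion, and Benjamini-Hochberg adjustment, called at an adjusted p under 0.05. The groups of the second organoid set, of the spheroids and of A-485 were fitted together to share an estimate of spread, and other fits held only the groups compared. CPM used TMM factors over all libraries of an experiment, and CPM per kb divided by the tables' gene length. The procedure was tested on simulated data. Libraries of the same group were compared pairwise for duplicates, and none agreed within counting noise (smallest chi-square per degree of freedom 5.84).

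The genes named are the 8 members, and per pathway list the 2 with the smallest adjusted p in each direction at most, in the crypts of each Cre driver, the first organoids, flox/flox spheroids and 10 µM A-485. For the genes most like Nqo1, Gclc and Hmox1, the 3 with the highest Pearson r of log2 CPM (prior count 2) were taken. The labels give the same lines or animals in both groups for the first organoids, the spheroid treatments, A-485 and crypt against villus. Deviations of same-numbered libraries correlated at 0.318 to 0.501 in the first organoids, 0.385 to 0.783 in flox/flox and 0.626 to 0.857 in flox/+ spheroids, and 0.0556 to 0.352 with A-485. Along the crypt-villus axis they correlated at -0.0025 to 0.164 with Rosa26 and 0.0481 to 0.296 with Vil1. The alternatives were DESeq2 1.42.0, its size factors in edgeR, no filter on low counts, a replicate block, fewer or more groups in the fit, Y-linked transcripts or series of animal numbers as covariate, and leaving out each library in turn. One more, leaving out 4 spheroid lines, was chosen after seeing the data.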

Additional observations from a re-analysis of the deposited data

Results flagged for a closer look

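In groups of 4 to 10 libraries, the highest or lowest library was set against Dixon's 95% critical value for its gap to the nearest of the others, in 144 combinations of gene and group. It was passed in 10, where chance passes about 1 in 20. Gclc was high in homozygous Rosa26 crypt replicate 5, at 68.74 CPM against 42.01 to 46.22 in the other 3. It was also high in homozygous Vil1 villus replicate 1, at 212.9 against 121.2 to 147.0, and in flox/flox spheroid line 6 with DMSO, at 168.7 against 81.96 to 108.8. Gclm was high in organoids with intact Eif4g2 replicate 4, at 213.9 CPM against 133.1 to 137.7, and in flox/+ spheroid line 1 with 4-OHT, at 152.2 against 88.60 to 102.2.

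Hmox1 was high in heterozygous Vil1 villus replicate 1, at 1.068 CPM against 0.3863 to 0.4160. Srxn1 was low in heterozygous Vil1 crypt replicate 2, at 40.79 CPM against 63.93 to 68.13. In the A-485 experiment Nfe2l2 was high in line 2 with DMSO, at 350.0 CPM against 282.9 to 289.5. At 3 µM Keap1 was low in line 4, at 37.37 CPM against 75.82 to 83.62, and Nqo1 was low in line 1, at 25.67 against 43.00 to 45.34.

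A difference between the effects in villi and crypts, or in flox/flox and flox/+ spheroids, was tested for each gene, 24 tests in all. It passed for Nqo1 with Rosa26, where the effect of the homozygous genotype was lower in villi by a log2 difference of -1.21, and for Gclm with Vil1, where it was lower in villi by -0.92.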

How the results depend on the processing

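Of the 184 fold changes of the 8 genes, 54 were called, and 41 of these kept their call in every alternative run. None of the 54 reversed. The rest below are counts, or fold changes that were not among the 54, and some of these were not near 0. Low counts limit Hmox1 and, at 10 µM A-485, Nqo1, and groups of 3 to 6 libraries limit every comparison. The cause of the changes below was not tested, beyond the smaller number of libraries where one is left out.

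Fold changes are on the log2 scale. In Rosa26 crypts the number of the 8 genes called was 4 with DESeq2 and 1 with no filter on low counts, and in the Rosa26 interaction it was 3 with DESeq2. With no filter it was 1 for flox/flox against flox/+ organoids and 2 for spheroids against organoids. Over Rosa26 crypts and villi together, Y-linked transcripts as covariate gave a call to 2 fold changes of the 8 genes and took it from 2. The series of animal numbers gave a call to 1 and took it from 1. In Rosa26 villi, with Y-linked transcripts as covariate, 2967 genes were called, Gclc was -0.29 and Srxn1 0.22. Srxn1 there was 0.0012 with DESeq2 size factors, 0.0012 with DESeq2 and 0.013 with no filter. For flox/+ against intact Eif4g2, 156 genes were called by DESeq2 and 60 with no filter, against 16. DESeq2 called 9 genes between genotypes of spheroids with DMSO, 603 in the spheroid interaction and 2884 in the Rosa26 interaction, and with no filter the latter were 123 and 1221, against 243 and 1904. With A-485 libraries in the fit, 3079 genes were called in the first organoids. With only the groups compared, 880 genes were called between genotypes of spheroids with 4-OHT, 2229 for 5 against 3 µM A-485, and Gclm at 3 µM was 0.0073.

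With only the 7 spheroid lines of low stem cell markers, 1 of the 8 genes was called for 4-OHT against DMSO in flox/flox and 1 between genotypes with 4-OHT. Hmox1 was then -0.032 for 4-OHT in flox/flox, Srxn1 0.094 for 4-OHT in flox/+, and between genotypes with 4-OHT Keap1 was -0.14, Nqo1 -0.51 and Srxn1 -0.33.

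The replicate block, where lines or animals are shared, gave 5 of the 8 genes called in the first organoids, 1 in flox/flox spheroids, 4 for 10 against 5 µM A-485 and 2 in the Vil1 interaction. It gave 4649 genes in flox/flox spheroids, 1 gene in flox/+ spheroids, 2758 in the spheroid interaction and 777 in the Rosa26 interaction. In flox/flox spheroids Nfe2l2 was 0.026 and Nqo1 0.18 with the block, and Gclm was 0.0055 in the spheroid interaction. It also gave Gclm at 10 µM A-485 a call, and beyond these changed no other call of the 8 genes in comparisons that share lines or animals. In the remaining comparisons libraries were paired only by replicate number. Their deviations correlated at 0.0366 to 0.599 in Rosa26 crypts, -0.164 to 0.254 in Rosa26 villi, -0.034 to 0.191 in Vil1 crypts, -0.103 to 0.115 in Vil1 villi, -0.187 to 0.160 in the second organoids and -0.466 to 0.510 between spheroid genotypes. There the block gave 141 genes between genotypes of spheroids with 4-OHT and 4 for flox/+ against intact Eif4g2. It gave Txnrd1 0.037 in Vil1 crypts, Gclc 0.0045 for flox/flox against intact Eif4g2, Nfe2l2 -0.0035 between genotypes of spheroids with 4-OHT, and with DMSO Nqo1 -0.022 and Gclc -0.065.

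Leaving out 1 library in turn gave 1937 to 4732 genes called in Rosa26 crypts, 3223 to 5978 in Vil1 crypts, 1 to 32 for flox/+ against intact Eif4g2, 131 to 362 in the spheroid interaction, 1079 to 3068 in the Rosa26 interaction and 1456 to 3425 in the Vil1 interaction. In Rosa26 crypts the count moved by over 1.5 times without homozygous replicate 4 (2027) or heterozygous replicate 2 (2010), 3 (2086) or 5 (1937), and in Vil1 crypts without homozygous replicate 1 (3223). In the Rosa26 interaction it did so without homozygous crypt replicate 3 (1234), 4 (1079) or 5 (3068), heterozygous crypt replicate 2 (1167) or 5 (1162), or heterozygous villus replicate 5 (1252), and in the Vil1 interaction without heterozygous crypt replicate 1 (1804) or homozygous crypt replicate 1 (1456) or 2 (1636). The count for flox/+ against intact Eif4g2 did so without any of the 4 flox/+ libraries or of replicates 1, 2 and 3 with intact Eif4g2. That of the spheroid interaction fell to between 131 and 161 without flox/flox line 1 with DMSO, line 2 with 4-OHT, or flox/+ lines 2 to 5 in either treatment. Of the 8 genes, 1 to 2 were called in Rosa26 crypts, 2 to 5 in the first organoids, 1 to 2 for flox/flox against flox/+ organoids, 3 to 5 for flox/flox against intact Eif4g2, 2 to 4 for spheroids against organoids, 0 to 1 in flox/flox spheroids, 0 to 1 for 5 against 3 µM A-485, 1 to 3 for 10 against 5 µM, 1 to 2 in the Rosa26 interaction and 0 to 2 in the Vil1 interaction. In Rosa26 crypts 1 of the 8 was called without homozygous replicate 4 or any of the 5 heterozygous libraries, and for spheroids against organoids 2 were called without any of the 4 organoid libraries or spheroid line 3. The first organoids had 5 without 4-OHT line 3, flox/flox against flox/+ had 1 without flox/+ replicate 2, flox/flox against intact Eif4g2 had 3 without intact replicate 4, and 10 against 5 µM A-485 had 1 without line 1 or 3 at 10 µM. The Vil1 interaction had none without homozygous crypt replicate 1.

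The fold changes that reversed on leaving out 1 library had no call in the first place. In Rosa26 crypts Srxn1 ran from -0.051 to 0.55. In Rosa26 villi Keap1 ran from -0.013 to 0.12, Gclc from -0.035 to 0.17 and Srxn1 from -0.099 to 0.13. In Vil1 crypts Keap1 ran from -0.019 to 0.11, Txnrd1 from -0.11 to 0.16 and Srxn1 from -0.29 to 0.13, and between Vil1 crypt and villus Hmox1 ran from -0.48 to 0.14. In the Rosa26 interaction Srxn1 ran from -0.42 to 0.079. In the first organoids Gclc ran from -0.015 to 0.34. For flox/flox against intact Eif4g2 Gclc ran from -0.10 to 0.062 and Gclm from -0.18 to 0.075, and for flox/+ against intact Eif4g2 Nfe2l2 ran from -0.14 to 0.025 and Gclm from -0.25 to 0.0098. In flox/flox spheroids Nfe2l2 ran from -0.14 to 0.10, Nqo1 from -0.31 to 0.31, Gclm from -0.063 to 0.17 and Hmox1 from -0.053 to 0.12. In flox/+ spheroids Nqo1 ran from -0.11 to 0.54, Gclm from -0.082 to 0.15, Hmox1 from -0.20 to 0.69 and Srxn1 from -0.22 to 0.076. Between genotypes of spheroids with 4-OHT Nfe2l2 ran from -0.055 to 0.17, Nqo1 from -0.20 to 0.47, Gclc from -0.22 to 0.18 and Srxn1 from -0.18 to 0.23, and with DMSO Gclc ran from -0.098 to 0.18 and Gclm from -0.028 to 0.20. In the spheroid interaction Nqo1 ran from -0.61 to 0.070, Gclc from -0.29 to 0.11, Gclm from -0.14 to 0.12 and Hmox1 from -0.65 to 0.24. With A-485 at 3 µM Keap1 ran from -0.16 to 0.15, Gclm from -0.19 to 0.095 and Txnrd1 from -0.049 to 0.041, at 5 µM Gclm from -0.16 to 0.039, and at 10 µM Keap1 from -0.027 to 0.15. For 5 against 3 µM Nfe2l2 ran from -0.081 to 0.12, Keap1 from -0.048 to 0.26, Gclm from -0.15 to 0.13 and Srxn1 from -0.039 to 0.13, and for 10 against 5 µM Keap1 ran from -0.12 to 0.053.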
